A study of Mus musculus with 20 samples.

Results

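The genes of the sarcomeric myosins were followed in the quadriceps of old mice shortly after an injection of a stem cell product. The 10 genes were chosen by symbol among the 55416 genes of the count table. They are the adult heavy chains Myh4, Myh1, Myh2 and Myh7, the developmental heavy chains Myh3 and Myh8, and the light chains Myl1, Mylpf, Myl2 and Myl3. All 10 were in the table, and all 10 had enough counts to be tested. The mice were wild-type male C57BL/6J, 26 to 28 months old, and the muscle was taken 3 h after 1 intramuscular injection. Control mice received 50 µL of saline (0.9%), and secretome-treated mice received 50 µL of the secretome, which is the material released by cultured human pluripotent stem cells. There were 10 muscles of each treatment, each with its own label, and total RNA depleted of ribosomal RNA was sequenced. The samples were whole quadriceps pieces with all their cells, so fewer fibers of a type and less RNA per fiber cannot be told apart.

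Myosin is the motor protein of the thick filament, built of heavy chains that split ATP and light chains that wrap the neck of each head. Each adult fiber makes mainly one heavy chain, and the isoform sets how fast the fiber shortens: Myh4 encodes the fastest (type 2B), Myh1 the 2X, Myh2 the 2A and Myh7 the slow type 1 chain. Myh3 (embryonic) and Myh8 (perinatal) are made by developing fibers and again by regenerating or newly formed ones. Myl1 and Mylpf encode the essential and the regulatory light chain of fast fibers, and Myl3 and Myl2 those of slow fibers. The mouse quadriceps is a mainly fast muscle, with slow fibers in limited regions.

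The depth was 13286983 to 22987237 counted reads per muscle, of which the 10 myosin genes took 3.64% to 6.74%. The labels number the libraries 1 to 20. Libraries 1 to 5 were all controls, libraries 16 to 20 were all secretome-treated, and libraries 6 to 15 held 5 muscles of each treatment. The share of counts on Ttn, the giant elastic protein titin, was 7.02% to 11% in libraries 1 to 5, 16.4% to 21.1% in libraries 6 to 15 and 14.2% to 14.7% in libraries 16 to 20, so comparisons are also given within libraries 6 to 15, called the mixed libraries. The other 10 libraries are called unmixed. The summed level of 6 skeletal fiber markers was 105432 to 315704 CPM over the 20 muscles, where CPM is the count relative to a library total scaled by TMM. That of 6 heart markers was 0.275 to 3.24 CPM, with Nppa, Nppb and Myl7 at no more than 2 counts in any library. Of the markers of 12 cell types, 0 passed the 5% false discovery rate between treatments in edgeR over all 20 muscles, yet some lists leaned one way in that fit. In it, 6 of 6 skeletal fiber markers were higher after secretome. All tested markers of smooth muscle, macrophages, fibro-adipogenic cells, adipocytes and Schwann cells (4 each) were lower. Ckm and Tnnt3, the fiber markers also followed among the fast-fiber partners below, had log2 fold changes of 0.05 and 0.08 over all muscles. In the mixed libraries they had -0.08 and 0.03. The p-values measure the spread between these muscles.

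Most of the heavy chain genes are neighbors. In GENCODE M21 (GRCm38), Myh3, Myh2, Myh1, Myh4 and Myh8 lie in this order on the plus strand of chromosome 11, from 67078300 to 67308634. Myh7 lies on the minus strand of chromosome 14 from 54970684 to 54994626. The light chain genes are scattered, with Myl1 on chromosome 1 (66924295 to 66945404), Myl2 on chromosome 5 (122100951 to 122113472), Mylpf on chromosome 7 (127208890 to 127214298) and Myl3 on chromosome 9 (110741861 to 110769798). The 250 bases before the RefSeq start (GRCm38.p6) of the adult fast genes and of Myh8 are shown first, since these neighbors differ in level by orders of magnitude and share letters in this window. Capitals mark runs of 9 or more letters found in all 3 windows of Myh2, Myh1 and Myh4.
Myh2, chr11:67170777-67171026, plus strand: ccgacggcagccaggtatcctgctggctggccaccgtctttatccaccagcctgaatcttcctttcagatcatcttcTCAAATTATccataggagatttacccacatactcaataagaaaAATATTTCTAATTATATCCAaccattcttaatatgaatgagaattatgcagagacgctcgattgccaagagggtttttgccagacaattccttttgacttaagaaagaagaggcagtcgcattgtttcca
Myh1, chr11:67199852-67200101, plus strand: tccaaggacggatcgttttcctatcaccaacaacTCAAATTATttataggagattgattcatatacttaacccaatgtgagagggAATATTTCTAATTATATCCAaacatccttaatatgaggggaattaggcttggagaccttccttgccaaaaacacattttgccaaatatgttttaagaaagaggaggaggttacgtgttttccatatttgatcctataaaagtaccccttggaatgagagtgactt
Myh4, chr11:67237562-67237811, plus strand: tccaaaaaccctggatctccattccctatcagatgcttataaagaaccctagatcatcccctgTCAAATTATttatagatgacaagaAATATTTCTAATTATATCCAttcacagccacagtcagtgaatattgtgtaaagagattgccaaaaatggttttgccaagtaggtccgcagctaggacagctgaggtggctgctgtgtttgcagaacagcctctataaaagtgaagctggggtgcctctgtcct
Myh8, chr11:67276874-67277123, plus strand: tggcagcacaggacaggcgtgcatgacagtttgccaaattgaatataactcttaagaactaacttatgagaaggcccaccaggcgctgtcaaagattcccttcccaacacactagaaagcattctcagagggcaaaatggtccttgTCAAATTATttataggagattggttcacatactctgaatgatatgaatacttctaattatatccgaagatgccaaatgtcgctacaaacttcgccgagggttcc
The run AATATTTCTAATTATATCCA, 20 letters long, began 130 bases before the start of Myh2, 165 before that of Myh1 and 163 before that of Myh4. It was held, on either strand, by 3 of the 32851 RefSeq promoter windows, which were these 3. The shorter run TCAAATTAT was in all 4 windows and in 0.174% of all windows. These runs were found by comparing the genes, so they are a description.

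The windows of 2 slow genes are shown next because their levels moved together across muscles. Capitals mark matches, on either strand, to the E-box letters CANNTG, which bind myogenic factors such as MyoD, and to the MCAT letters CATTCC, which bind TEAD factors. RefSeq lists 2 starts for Myh7, 77 bases apart, and the window is that of the more upstream one.
Myh7, chr14:54994627-54994876, minus strand: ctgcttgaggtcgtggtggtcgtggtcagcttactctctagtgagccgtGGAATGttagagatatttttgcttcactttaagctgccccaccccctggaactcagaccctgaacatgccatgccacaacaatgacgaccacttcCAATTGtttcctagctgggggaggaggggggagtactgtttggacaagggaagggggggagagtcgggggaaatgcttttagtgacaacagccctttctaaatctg
Myl3, chr9:110763428-110763677, plus strand: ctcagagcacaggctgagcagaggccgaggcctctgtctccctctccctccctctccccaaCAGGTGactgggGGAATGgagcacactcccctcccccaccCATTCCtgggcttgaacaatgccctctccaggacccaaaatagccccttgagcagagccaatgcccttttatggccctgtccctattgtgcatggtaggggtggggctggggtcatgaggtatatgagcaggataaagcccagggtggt
In the Myh7 window there was 1 match to CANNTG and 1 to CATTCC, and in the Myl3 window 1 and 2, with no overlap between matches. CANNTG was in 66.2% of all windows and CATTCC in 12.6%. CATTCC was also present once in the windows of Myh1, Myh4 and Myl1, and TATAAA, in 12.4% of all windows, was present in those of Myh1, Myh4, Myh3, Myh8 and Myl1. A MEF2 site, in 2.92% of all windows, was present once in each of Myh1, Myh4 and Myh8, and in each of them it overlapped a TATAAA match. The entries for Myl2 were not near its annotated start and are not shown.

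Fast isoforms made up nearly all of the myosin transcript. Per length of transcript (CPM per kb), the order of the medians over the 20 muscles was Myh4 (7460), Myl1 (6949), Mylpf (4335), Myh1 (414), Myh2 (67), Myl3 (3.16), Myl2 (3.11), Myh8 (1.65), Myh3 (0.41) and Myh7 (0.296). Myl1 stood above Mylpf, Mylpf above Myh1, Myh1 above Myh2, Myh2 above Myl3, and Myh8 above Myh3 in all 20 muscles. Other neighbors in this order overlapped: Myh4 was above Myl1 in 12 of 20 muscles, Myl3 above Myl2 in 13, Myl2 above Myh8 in 11 and Myh3 above Myh7 in 11. Myh4 accounted for 90.9% ± 7.87 of the adult heavy chain after saline and 92.8% ± 3.73 after secretome (mean ± SD over 10 muscles each). Myh1 made up 6.93% ± 5.75 and 5.6% ± 2.45, Myh2 2.1% ± 2.28 and 1.57% ± 1.4, and Myh7 0.0817% ± 0.135 and 0.0571% ± 0.152. The range of Myh4 over all muscles was 74% to 97.9%, with the lowest value in control replicate 2, where Myh1 reached 19.2% and Myh2 6.81%.

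**Figure D1:**
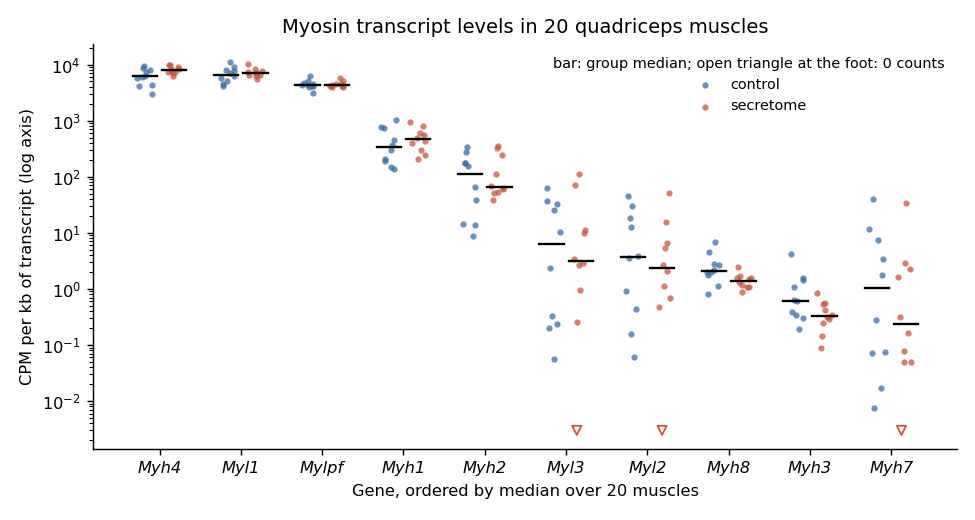
Level of each myosin gene in each muscle, in CPM per kb of its principal transcript on a log axis, for 10 control (blue) and 10 secretome-treated (red) muscles, with bars at the group medians and open triangles at the foot for muscles with 0 counts. Myh4, Myh1, Myl1 and Mylpf each span less than 1 order of magnitude, while Myh7, Myl2 and Myl3 run from 0 to 39.7, 50.9 and 112 CPM per kb.

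The width of these ranges differed by isoform. The highest muscle stood above the lowest by 2.03-fold for Mylpf, 2.6-fold for Myl1 and 3.24-fold for Myh4. The ratio was 7.53-fold for Myh1, 8.32-fold for Myh8, 41.1-fold for Myh2 and 48.7-fold for Myh3. The slow genes varied the most, with ratios of 287-fold for Myl2, 680-fold for Myl3 and 1571-fold for Myh7. Each was taken against the limit that 0 counts allows in the lowest library (3 counts), relative to its total without TMM scaling. For Myh7 and Myl2 that library was secretome replicate 10, where TMM scaling raises the limit. The ratios of these genes are therefore above the lower bound on the scale of the levels. Secretome replicate 10 had 0 Myh7 counts among 19042373 reads, which allows up to 0.158 CPM without TMM scaling. It held 993133 counts of Myh4, the highest Myh4 level of all. These limits cover counting error only.

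Part of each heavy chain sequence, and of Myl1, is shared, which bears on how far reads can be assigned. Of all stretches of 150 bases in the principal transcript, 6.22% of those of Myh1, 3.59% of Myh2 and 0.511% of Myh4 also occur in transcripts of other genes, mostly other heavy chains of the cluster. The share was 6.5% for Myh7, which matches stretches of its cardiac relative Myh6 and of the antisense Mhrt, 1.6% for Myh8, 0.306% for Myh3, 2.75% for Myl1, which matches the pseudogene Mylf-ps, and 0 for Mylpf, Myl2 and Myl3. For stretches of 75 bases, the share rose to 22% for Myh1, 18.3% for Myh2, 9.68% for Myh4, 12.9% for Myh8, 19.7% for Myh7 and 22.9% for Myl1. Stretches of Myh4 with 150 bases were shared only with Myh1 and Myh8, and those with 75 bases also with Myh2. How the counting step treated reads that match more than 1 gene is not given in the sources used here. Small levels of Myh1, Myh2 and Myh8 beside more abundant heavy chains are therefore less certain than their counts imply.

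Secretome treatment was compared with saline for each gene to see whether the isoforms moved together or apart. By the quasi-likelihood test of edgeR, with p adjusted by Benjamini-Hochberg over 14471 genes, 0 of the 10 myosin genes passed a 5% false discovery rate, where 0.00691% of all genes passed. At an unadjusted p under 0.05 there were 2 of 10, Myh3 and Myh8, both lower, against 15.7% of all genes in either direction and 9.21% in the lower direction. DESeq2 and voom with quality weights also passed 0 of 10, where 1.18% and 0.0207% of all genes passed. At an unadjusted p under 0.05 they had 3 and 1 of 10, against 9.26% of 32456 genes in DESeq2 and 12.4% of 14471 in voom. The DESeq2 share counts low-count genes that the edgeR filter left out. The median log2 fold change of the 10 genes was 0.05, and that of all genes was -0.03.

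Myh4, the fast 2B heavy chain, ranged from 17934 to 57226 CPM in control muscle with a median of 37455, and from 38341 to 58166 with a median of 47841 after secretome. All 10 secretome-treated muscles were above the control median, and 2 of them were above every control, so the groups overlapped. The log2 fold change was 0.35 with a standard error (SE) of 0.173 (edgeR adjusted p = 0.323). Its neighbor Myh1, the 2X chain, ranged from 829 to 6235 CPM in control (median 2039) and from 1269 to 5712 (median 2807) after secretome, with a log2 difference of 0.19 (SE 0.37, adjusted p = 0.828). Myh2, the 2A chain, ranged from 52.5 to 2099 CPM in control (median 670) and from 233 to 2161 (median 400) after secretome, with a log2 difference of 0.11 (SE 0.641, adjusted p = 0.947). For Myh2 the median was lower and the mean higher after secretome (772 ± 721 against 833 ± 741 CPM, mean ± SD), and its secretome-treated muscles lay above the control median in 4 of 10.

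Myh4 was lowest in the first libraries, and its difference moved with the library numbers. In the mixed libraries, Myh4 was at 47675 ± 8568 CPM after saline and 48958 ± 4139 after secretome (mean ± SD over 5 muscles each), with a log2 difference of 0.05 (SE 0.139, edgeR adjusted p = 0.909). Controls of libraries 1 to 5 held 28639 ± 8613 CPM, against 48480 ± 9061 in the secretome-treated libraries 16 to 20, with a log2 difference of 0.76 (SE 0.229, adjusted p = 0.163). The treatment contrast was smaller by 0.72 on the log2 scale in the mixed than in the unmixed libraries (SE 0.266, edgeR p = 0.0129, adjusted p = 0.293). The summed skeletal fiber markers had a median of 199216 CPM in control and 251087 after secretome. The largest part of that sum was Ttn, at 57934 to 227532 CPM over the 20 muscles, whose share of counts also differed by library range. The part of these markers in the Myh4 result was not tested. Each unmixed range holds 1 treatment, so library number and treatment cannot be told apart there.

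The balance of heavy to light chains was also lowest in libraries 1 to 5, while in the mixed libraries the treatments overlapped. Summed per length, adult heavy chains stood to the 4 light chains at 0.428 ± 0.0796 in libraries 1 to 5, where the range was 0.352 to 0.553. In the control libraries 6 to 10 the ratio was 0.861 ± 0.147, in the secretome-treated libraries 11 to 15 it was 0.778 ± 0.0609, and in libraries 16 to 20 it was 0.715 ± 0.0973. The medians of the mixed libraries had the reverse order of their means, at 0.805 in control and 0.812 after secretome. Their ranges were 0.686 to 1.07 and 0.685 to 0.824. The 5 muscles of libraries 1 to 5 lay below all 15 others, whose lowest value was 0.626. These were also the 5 libraries with the lowest share of counts on Ttn. The part of library number in the ratio was not tested.

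**Figure D2:**
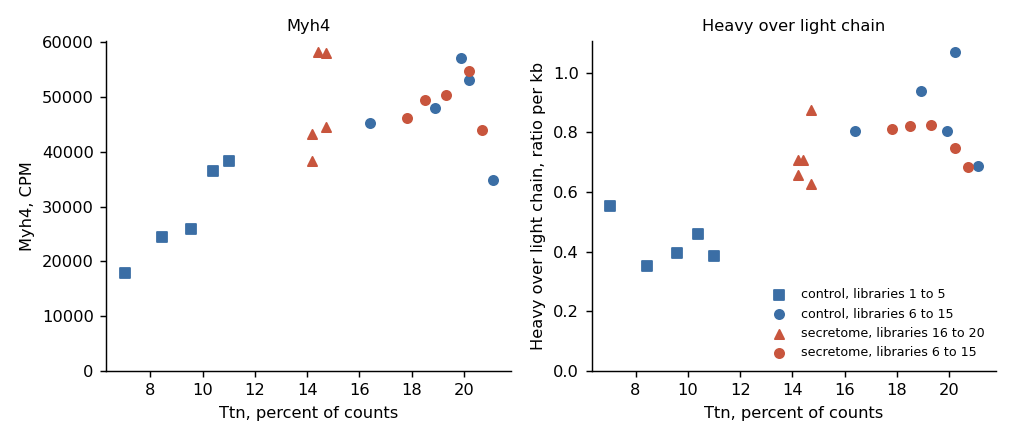
Myh4 level in CPM (left) and the ratio of adult heavy chain to light chain transcript per kb (right) in each of 20 muscles, against the percent of counts on Ttn, with symbols for treatment and library numbers. The 5 control libraries 1 to 5 sit at Ttn shares of 7.02% to 11% with heavy to light ratios of 0.352 to 0.553, below all other muscles.

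The slow genes Myh7, Myl2 and Myl3 were near 0 in some muscles and readily counted in others, in both treatments. Myh7, the slow heavy chain, ranged from 0.0464 to 248 CPM in control (median 6.47) and from 0 to 215 CPM after secretome (median 1.48). Its 2 highest muscles were control replicate 8 and secretome replicate 8, followed by control replicate 5 at 72.9 CPM. Myl2, the slow regulatory light chain, ranged from 0.0534 to 40 CPM in control (median 3.29) and from 0 to 45.3 after secretome (median 2.13). Myl3, the slow essential light chain, ranged from 0.0534 to 59 CPM in control (median 6) and from 0 to 105 after secretome (median 2.96). The treatments overlapped over nearly the whole range for each of the 3 genes.

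The muscles were split at the widest fold gap between neighboring nonzero Myh7 levels. That cut was picked from these same values, and whether it parts 2 groups was not tested. In 9 muscles, 5 control and 4 secretome-treated, Myh7 was at 9.98 CPM or above, and in the other 11 it was at 1.94 CPM or below, a gap of 5.14-fold. The 9 muscles highest in Myl3 were the same 9, and 7 of the 9 highest in Myl2 were among them. All 9 muscles highest in Tnnt1, the slow troponin T, were these muscles as well. Of the 9 highest in Myh2, 7 were among them, the exceptions being control replicate 2 and secretome replicate 9, which had 1670 and 1947 CPM of Myh2 with 1.74 and 1.94 CPM of Myh7. Conversely, control replicate 5 ranked 3 of 20 in Myh7 and 17 of 20 in Myh2, at 229 CPM.

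No treatment difference of the slow genes stood out from this spread. The log2 fold change was -0.61 for Myh7 (SE 1.32, edgeR adjusted p = 0.844), -0.41 for Myl2 (SE 0.986, adjusted p = 0.862) and 0.33 for Myl3 (SE 1.12, adjusted p = 0.907). An SE of 1.32 on the log2 scale leaves changes of Myh7 of several fold in either direction undetectable in these muscles. Without control replicate 8, the value for Myh7 was 0.61, and without secretome replicate 8 it was -2.98 (adjusted p = 0.282), so the size and sign depended on these 2 muscles. Without the same muscles Myl2 had 0.15 and -1.58, and Myl3 had 0.84 and -0.59. Among the mixed libraries, Myh7 had a log2 fold change of -3.57 (SE 1.81, p = 0.0819, adjusted p = 0.545), Myl2 one of -2.43 (adjusted p = 0.548) and Myl3 one of -2.13 (adjusted p = 0.64). Without control replicate 8, these values were -1.49, -1.19 and -1.23. Between the unmixed libraries they were 1.29, 0.62 and 1.63, and the difference between the ranges did not pass for Myh7 (-4.88, SE 2.69, adjusted p = 0.53).

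**Figure D3:**
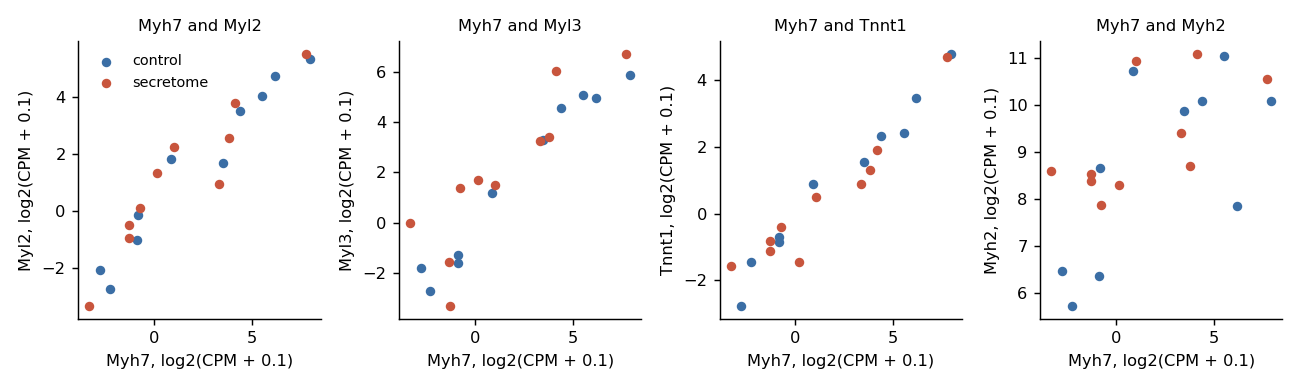
Level of Myl2, Myl3, Tnnt1 and Myh2 against that of Myh7 in each of 20 muscles, all as log2(CPM + 0.1), with control in blue and secretome-treated in red. Myl2, Myl3 and Tnnt1 line up with Myh7 across both treatments, while Myh2 is more loosely placed.

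The developmental heavy chains were the myosin genes with the smallest p, and both were lower after secretome. Myh3, the embryonic chain, ranged from 1.17 to 25.7 CPM in control (median 3.74) and from 0.527 to 5.17 after secretome (median 1.98). In 9 of 10 secretome-treated muscles it lay below the control median, and in 2 it lay below every control. Myh3 had a log2 fold change of -1.50 (SE 0.499, edgeR p = 0.0067, adjusted p = 0.189). Myh8, the perinatal chain, ranged from 5.08 to 42.2 CPM in control (median 12.7) and from 5.37 to 14.9 after secretome (median 8.67), and 9 of 10 secretome-treated muscles lay below the control median. Myh8 had a log2 fold change of -0.90 (SE 0.294, edgeR p = 0.0059, adjusted p = 0.181). Neither gene passed the 5% false discovery rate. DESeq2 gave adjusted p of 0.0982 for Myh3 and 0.0734 for Myh8, which were the lowest of 28 alternative fits, the highest being 0.789 for both with the library ranges as a term.

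Both genes were lower in secretome-treated muscle in all 28 alternative fits, to a different extent. These fits reuse the same muscles, and 20 of them only leave out 1 muscle, so they are not independent of each other. With voom the log2 fold changes were -0.82 for Myh3 (p = 0.0731, adjusted p = 0.453) and -0.51 for Myh8 (p = 0.0494, adjusted p = 0.402). With the replicate number as a block Myh3 had -1.08 in edgeR (p = 0.0918, adjusted p = 0.425). Myh3 was at 8.63 ± 9.99 CPM in the controls of the mixed libraries and 1.87 ± 0.898 in their secretome-treated muscles (mean ± SD), with a log2 difference of -2.20 (SE 0.753, edgeR p = 0.0156, adjusted p = 0.452). Each of those 5 treated muscles lay below the median of the 5 controls. Myh8 was at 17.8 ± 14.1 and 8.91 ± 2.02 CPM there, with a log2 difference of -0.98 (SE 0.436, p = 0.047, adjusted p = 0.498). Between the other libraries, the values were -0.70 for Myh3 (SE 0.574, adjusted p = 0.564) and -0.78 for Myh8 (SE 0.368, adjusted p = 0.319). The difference between the ranges did not pass for Myh3 (-1.52, adjusted p = 0.6) or Myh8 (-0.21, adjusted p = 0.935).

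One control muscle carried much of the size of these differences. Control replicate 9 held 25.7 CPM of Myh3 and 42.2 CPM of Myh8, the highest of all 20 muscles for both. Without it, the log2 fold change was -0.93 for Myh3 (unadjusted p = 0.0305 in edgeR) and -0.62 for Myh8 (p = 0.0175). In the mixed libraries without it, Myh3 had -1.22 (p = 0.0345, adjusted p = 0.555) and Myh8 -0.38 (p = 0.132, adjusted p = 0.683). This muscle was also the highest of 20 in Myog, the myogenin of differentiating myoblasts, at 15.2 CPM, in Chrng, the fetal acetylcholine receptor subunit, at 3.5 CPM, in Chrna1 at 43.1 CPM and in Tnnt2, the fetal troponin T, at 5.66 CPM. It ranked 2 of 20 in Ncam1 and in Mymk and Mymx, which fuse myoblasts, but at only 10 counts of Mymk and 19 of Mymx. Mymk, Mymx and Chrng had too few counts to pass the edgeR filter. The same muscle ranked 5 of 20 in Myod1 and 10 of 20 in Actc1, the fetal actin. In Pax7 and Myf5, which mark satellite cells, it ranked 16 and 20 of 20. These genes were chosen with earlier results of these data known, and their part in the myosin result was not tested.

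**Figure D4:**
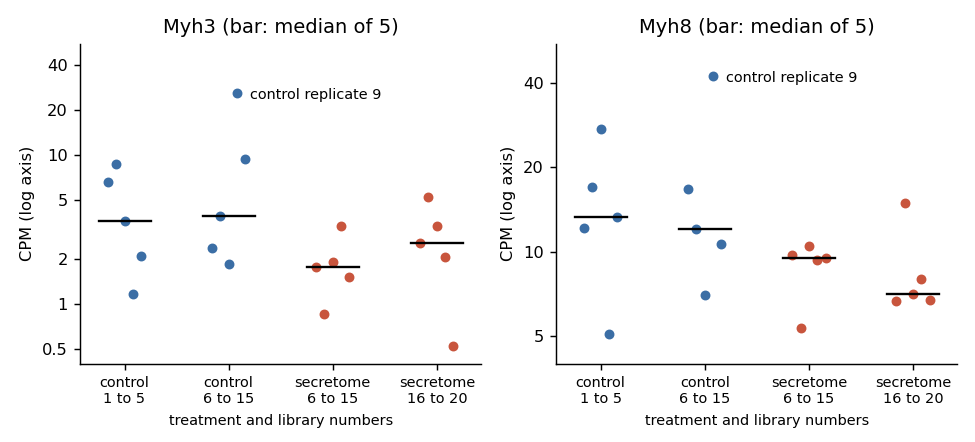
Level of Myh3 and Myh8 in CPM on a log axis in each muscle, by treatment and library numbers, with bars at the median of 5 muscles. Control replicate 9 is the highest muscle in both panels, and the median of the secretome-treated muscles is below that of the controls within libraries 6 to 15 and outside them.

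In the list of 11 satellite cell and new-fiber genes, 8 had enough counts to be tested, and 0 of them rose or fell at the 5% false discovery rate (0 with an unadjusted p under 0.05). All 8 had a log2 fold change below 0 in edgeR, where 44.1% of all genes were higher, with a median of -0.20 against -0.03 over all genes. In voom 2 were higher and 6 lower, with a median of -0.03 against -0.01 over all genes. The smallest p belonged to Ncam1, the neural cell adhesion molecule, at 10.2 ± 3.65 CPM in control and 8.69 ± 1.66 after secretome (log2 fold change -0.22, adjusted p = 0.538), and to Tnnt2 (-0.39, adjusted p = 0.635). In the mixed libraries, 3 of the 8 were higher and 5 lower. The summed level of 4 satellite cell markers was 23.1 to 72.7 CPM in control and 27.9 to 108 CPM after secretome, so it overlapped between treatments. Summed levels of the marker lists that leaned lower also overlapped, for example macrophages at 28.1 to 84.7 CPM in control and 21.6 to 72.5 after secretome, and fibro-adipogenic cells at 166 to 912 and 249 to 558 CPM. Their part in the Myh3 and Myh8 results was not tested.

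The fast light chains differed least between treatments. Myl1, the fast essential light chain, ranged from 3378 to 8775 CPM in control (median 5278) and from 4371 to 8067 after secretome (median 5638), with a log2 difference of 0.08 (SE 0.156, edgeR adjusted p = 0.835). Mylpf, the fast regulatory light chain, ranged from 2355 to 4775 CPM in control (median 3321) and from 3014 to 4466 after secretome (median 3312), with a log2 difference of 0.01 (SE 0.109, adjusted p = 0.963). Both groups were nested, with the control range enclosing the treated range for either gene. Control replicate 1 was the highest and control replicate 2 the lowest muscle for both. For the mixed libraries the log2 fold changes were 0.20 (adjusted p = 0.605) and 0.06 (adjusted p = 0.881) in edgeR, while Myh4 had 0.05 there. Myl1 gives rise to a long and a short protein from separate starts, and the counts per gene do not separate them.

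Set side by side, Myh1, Myh2 and the 3 slow genes had differences of opposite sign in the mixed and the unmixed libraries, and none passed in either. Over the mixed libraries, Myh1 had a log2 fold change of -0.47 (SE 0.472, edgeR adjusted p = 0.73) and Myh2 one of -1.12 (SE 0.668, adjusted p = 0.591). Over the unmixed libraries the values were 0.88 (SE 0.487, adjusted p = 0.392) and 0.99 (SE 0.957, adjusted p = 0.633). For the mixed libraries, 0 of 10 myosin genes passed the 5% false discovery rate in edgeR (0% of 14469 genes passed in edgeR), and 2 of 10 had an unadjusted p under 0.05, against 9.95% of all genes. DESeq2 passed 0 of 10 there as well, against 0.24% of 15390 genes. It had 4 of 10 (Myh3, Myh7, Myh8 and Myl2) at an unadjusted p under 0.05, against 5.94% of 29853 genes. Those 29853 include low-count genes that the edgeR filter left out, so the shares of DESeq2 and edgeR are not alike. For the difference between the ranges, 0 of 10 myosin genes passed, against 0.0553% of all genes, and 1 of 10, Myh4, had an unadjusted p under 0.05, against 11.1%. The difference between ranges was below 0 for 8 of 10 genes, with Myh1 at -1.37 (adjusted p = 0.501) and Myh2 at -2.13 (adjusted p = 0.562).

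**Figure D5:**
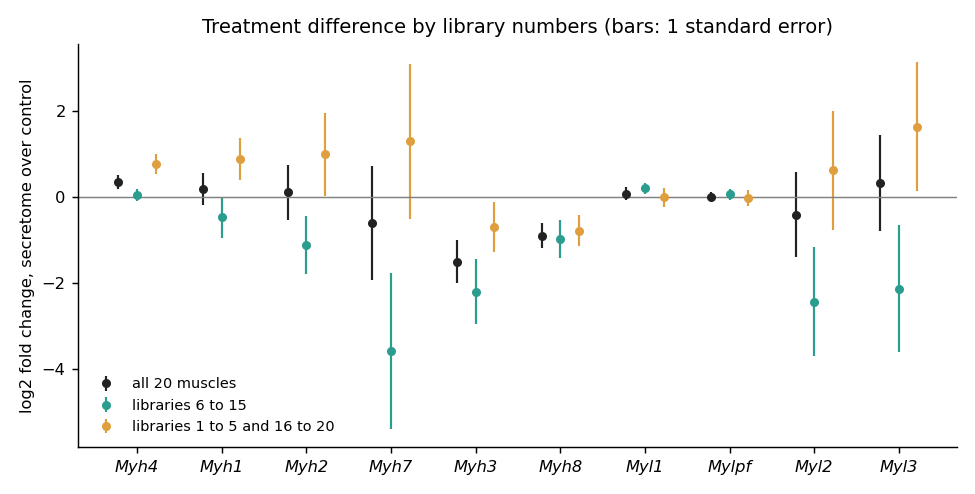
Log2 fold change of secretome over control for each myosin gene, with 1 standard error, from edgeR fits on all 20 muscles (black), on libraries 6 to 15 (green) and on libraries 1 to 5 and 16 to 20 (orange). Myh3 and Myh8 lie below 0 in all 3 fits, and Myh1, Myh2, Myh7, Myl2 and Myl3 lie below 0 in libraries 6 to 15 and above 0 in the other libraries.

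Ratios between isoforms within a library do not depend on library size and were compared for 6 pairs. The log2 ratio of Myh4 to Myh1 counts was 4.10 ± 1.26 after saline and 4.15 ± 0.66 after secretome (mean ± SD over 10 muscles each), a difference of 0.05 (two-sided permutation test with 100000 resamples, p = 0.918, adjusted p = 0.995 over the 6 ratios). That of Myh1 to Myh2 was 2.35 ± 1.32 and 2.18 ± 0.79, a difference of -0.17 (permutation p = 0.726, adjusted p = 0.995). Myh4 over Myh2 differed by -0.13 (permutation p = 0.874), and the slow to fast ratios of Myh7 over Myh4, Myl3 over Myl1 and Myl2 over Mylpf differed by -1.29, -0.01 and -0.41 (permutation p = 0.472, 0.995 and 0.769). None of the 6 ratios passed, with adjusted p of 0.995 for each in this permutation test. The SD of a ratio was smaller than in control in all 6, for example 1.23 after secretome against 2.15 for Myh4 over Myh2, and the difference of the SDs was not tested. In the unmixed libraries it was larger after secretome for Myh7 over Myh4 (5.10 against 3.77) and Myl2 over Mylpf (4.15 against 3.62). Among the mixed libraries, the Myh4 to Myh2 ratio was 6.30 ± 1.98 in control and 6.92 ± 0.41 after secretome (two-sided exact permutation test, p = 0.556, adjusted p = 0.667), and the Myl3 to Myl1 ratio was -10.06 ± 3.89 and -12.11 ± 3.63 (exact p = 0.413, adjusted p = 0.667). The smallest p that 5 muscles against 5 allow is 0.00794.

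Muscles that were high in one isoform were high in certain others, after the mean of each treatment and library range was removed. Over 20 muscles, Myh7 followed Myl2 (Pearson r = 0.96, Spearman rho = 0.95) and Myl3 (r = 0.95, rho = 0.93), each with a permutation p of 1e-05, the smallest that 100000 permutations can give, and an adjusted p of 4e-05 over 8 pairs. Without the 2 muscles farthest from the median of Myh7, control replicate 8 and secretome replicate 8, r was 0.94 and 0.95. On either side of the gap in Myh7, without removal of any mean, r with Myl2 was 0.91 over 9 muscles and 0.97 over 11, and r with Myl3 was 0.79 and 0.60. Myh7 and Myh2 had r = 0.66 (rho = 0.68, permutation p = 0.00785, adjusted p = 0.0126). That relation was 0.11 among the 9 muscles above the gap and 0.67 among the 11 below it. As the split was made on Myh7 itself and narrows its range, the values on either side are a description.

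Among the fast genes, Myh2 followed Myh1 (r = 0.74, rho = 0.71, permutation p = 0.0023, adjusted p = 0.00613), with r = 0.61 without the 2 farthest muscles. Myh2 and Myh4 had r = -0.56 (rho = -0.44, permutation p = 0.0575, adjusted p = 0.0657) and Myh1 and Myh4 r = -0.46 (rho = -0.31, permutation p = 0.101, adjusted p = 0.101). Expressed as shares of the 10 myosin genes, where a rise of one gene lowers the others, these 2 values were -0.74 and -0.89. They were -0.38 and -0.20 without the 2 farthest muscles, and -0.20 and -0.06 when only the treatment mean was removed. Myh3 and Myh8 had r = 0.68 (rho = 0.55, permutation p = 0.00678, adjusted p = 0.0126). Without control replicate 9 and secretome replicate 10 it was 0.58 with an adjusted p of 0.0554 in the permutation test, so the call rested on these muscles. Myl1 and Mylpf had r = 0.66 (rho = 0.37, permutation p = 0.0255, adjusted p = 0.034), and r = 0.20 without control replicates 1 and 2, so this relation rested on those 2 muscles.

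The genes most like a heavy chain across muscles were ranked among 13171 genes that had a symbol and averaged 1 CPM or more, by Pearson r over 20 muscles after the same centering. Those most like Myh7 were Tnnt1 (r = 0.98), Myl2 (0.96), Tnnc1 (0.95), Myl3 (0.95) and Tnni1 (0.93). Tnnt1, Tnnc1 and Tnni1 encode the 3 subunits of slow troponin, so 5 of 5 were slow thin or thick filament genes. Those most like Myh2 were Fhl1 (r = 0.96), a LIM protein of the sarcomere, Bdh1 (0.95), a mitochondrial enzyme of ketone body use, Ldhb (0.94), the lactate dehydrogenase subunit of oxidative tissue, Lrrn1 (0.91) and Atp1b1 (0.91), a sodium pump subunit. Those most like Myh4 were BX649560.1 (r = 0.90), Ecd (0.88), G3bp1 (0.87), Srl (0.85), the sarcalumenin of the sarcoplasmic reticulum, and D230025D16Rik (0.84). The points share library and depth, and the coefficients are a description.

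Genes that work with myosin were followed in 6 further lists, chosen with earlier results of these data known. In edgeR, 0 of their genes passed the 5% false discovery rate in either direction. Counting the satellite cell list as well, 79 of 85 genes were tested, 8 of the 79 had an unadjusted p under 0.05 (15.7% of all genes did), 44 were higher and 35 lower. In the mixed libraries 0 of the 79 passed, but 15 had an unadjusted p under 0.05 in edgeR, against 9.95% of all genes. There, 24 were higher and 55 lower. In voom 0 of 79 passed, and in DESeq2 1 of 85 passed, Tead1, which was higher. As 1.18% of all genes passed in DESeq2, that count is no more than the background. Tead1 encodes a factor that binds the MCAT letters marked in the windows of Myh7 and Myl3. It was at 309 ± 60.8 CPM in control and 427 ± 42.1 after secretome (mean ± SD over 10 muscles each), with a log2 difference of 0.47 (SE 0.108, edgeR p = 0.000237, adjusted p = 0.109). Its adjusted p was 0.00853 in DESeq2, and the range over 28 alternatives was 0.00853 to 0.789. Its log2 fold change in the mixed libraries was 0.38 (adjusted p = 0.472).

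Of the 18 fiber-type regulators, 16 were higher and 2 lower, with a median log2 fold change of 0.11 against -0.03 over all genes. Mef2c, a MADS-box factor of muscle genes, followed Tead1 at 529 ± 158 CPM in control and 675 ± 122 after secretome (0.35, edgeR adjusted p = 0.291). In the mixed libraries, 15 were higher and 3 lower. At an unadjusted p under 0.05 in edgeR there were 2 of 18 over all muscles and 6 of 18 in the mixed libraries. Of 11 tested genes for myosin assembly and kinases, 8 were higher and 3 lower (median 0.08), whereas 3 were higher and 8 lower in the mixed libraries (median -0.10). Mylk, the smooth muscle light chain kinase, was at 23.9 ± 4.09 and 19.2 ± 3.78 CPM (-0.32, adjusted p = 0.213), and Mylk4, a related kinase of striated muscle, at 1350 ± 449 and 1832 ± 533 CPM (0.44, adjusted p = 0.257).

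Over all 20 muscles, fast-fiber partners stayed close to the median of all genes, at 0.03 over 12 genes. In the mixed libraries 2 were higher and 10 lower (median -0.09), and in the unmixed ones 8 were higher and 4 lower (median 0.12). Pvalb, the calcium buffer parvalbumin of fast fibers, had the smallest p at 8611 ± 5251 CPM in control and 5895 ± 1035 after secretome (-0.55, edgeR adjusted p = 0.284), and its value within libraries 6 to 15 was 0.08. Tnni2, the fast troponin I, had -0.20 (adjusted p = 0.518). Slow-fiber partners had a median of -0.05 over 11 genes, with Tpm3, the slow tropomyosin, at -0.31 (adjusted p = 0.611) and Csrp3, a muscle LIM protein, at 0.77 (adjusted p = 0.653). Like Myh7, this list changed with library numbers, with 10 of 11 genes lower within libraries 6 to 15 (median -0.93) and 10 of 11 higher between the other libraries (median 0.47).

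Other striated myosin and myosin-binding genes had a median of 0.05 over 11 genes, with 6 higher and 5 lower. This list also changed with library numbers, with 11 of 11 genes lower in the mixed libraries (median -0.48), and 7 higher and 3 lower in the unmixed ones (median 0.40). The 2 with the smallest p were Mybph, a myosin-binding protein, at 251 ± 83.3 CPM in control and 200 ± 41.7 after secretome (-0.32, edgeR adjusted p = 0.373), and Myl4, the embryonic and atrial essential light chain, at 8.26 ± 6.11 and 5.8 ± 1.63 CPM (-0.51, adjusted p = 0.447). Smooth and non-muscle myosin genes had a median of -0.19 over 8 genes, with 6 lower. Myl9, the smooth muscle regulatory light chain, was at 12.2 ± 2.75 and 9.26 ± 2.38 CPM (-0.40, adjusted p = 0.213), and Myl6, the light chain of non-muscle myosin, at 64.9 ± 31.9 and 47.6 ± 5.6 CPM (-0.45, adjusted p = 0.271). In the mixed libraries these 2 values were -0.11 and -0.06, while the list had 8 of 8 genes lower there (median -0.34), and 4 higher and 4 lower in the unmixed libraries (median 0.02). The summed level of 5 smooth muscle markers was 2188 to 5949 CPM in control and 2520 to 3920 CPM after secretome. Nearly all of this sum was Des, at 2147 to 5887 CPM over the 20 muscles, against 11.9 to 30.7 CPM for Myh11. The sum therefore gives the level of 1 gene more than that of smooth muscle.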

How the data were processed

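The deposited table holds raw read counts per gene for 20 quadriceps muscles, without normalization by the authors. Libraries were stranded and sequenced in 150-base pairs. The submitters' processing notes name STAR 2.7.9a, cutadapt 1.16, featureCounts 1.6.3, DESeq2 1.34.0 and the build GRCm39 (mm39). The strand setting and the treatment of reads matching several genes are not given in the sources used here. Coordinates and transcript lengths come from GENCODE M21 (GRCm38) and promoters from RefSeq (GRCm38.p6), so they are not the build of the counts, and genes were joined by Ensembl identifier (10 of 10). Totals per muscle bound the precision, as 3 counts are the limit that 0 allows.

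Genes were filtered with filterByExpr and normalized by TMM in edgeR 4.0.16 (R 4.3.3), which left 14471 of 55416, and treatments were compared by the robust quasi-likelihood F-test with treatment as the term. Standard errors were obtained by dividing each log2 fold change by the square root of its F. Levels between genes were compared per kb of principal transcript. Ratios used counts plus 0.5. Permutation tests and correlations used SciPy 1.17.1 and NumPy 2.4.6. Alternatives were DESeq2 1.42.0, limma 3.58.1 (voom with quality weights), RLE, no filter, the replicate number as a block, the library ranges as a term or as subsets, and each muscle left out. The procedure was tested on simulated data. The extraction protocol of the labels mentions myotubes, whereas source and tissue labels give quadriceps.

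The members, gene lists, library ranges and tests were chosen with earlier results of these data known. The text names the 10 members, the genes of each list past the 5% false discovery rate or else the 2 with the smallest p, and the 5 genes most like Myh7, Myh2 and Myh4. Named outside this rule, after their values were seen, were Ttn, the heart markers at their maximum counts, Tead1 in DESeq2 and the new-fiber genes of control replicate 9.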

Additional observations from a re-analysis of the deposited data

Results flagged for a closer look

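In each treatment, the log2 CPM of the 10 myosin genes and the 6 isoform ratios were searched for a muscle set apart from the other 9, by the gap to its nearest neighbor as a share of the range. Of 32 groups of values, 0 held such a muscle, where chance gives about 1 in 20. The treatment difference of 0 of 10 myosin genes differed between the mixed and unmixed libraries past the 5% false discovery rate in edgeR. Levels between ranges of library numbers were not tested.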

How the results depend on the processing

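The count of 0 myosin genes past the 5% false discovery rate was 0 under each alternative run, with every muscle left out in turn (0 to 0) and at a 10% false discovery rate in edgeR, over all 20 muscles. The 10% rate was applied to edgeR only. In DESeq2, Myh8 (adjusted p = 0.0734) and Myh3 (adjusted p = 0.0982) lay under the 10% level. For libraries 6 to 15 the count was 0 with RLE, with DESeq2 and with each of the 10 muscles left out, and for the difference between ranges it was 0 with RLE and with no filter. For the 6 ratios it was 0 under each alternative run, with every muscle left out included. Directions of uncalled genes changed more easily, and the cause was not tested. With the library ranges as a term the log2 fold changes were -0.48 for Myh1, -1.13 for Myh2 and -2.14 for Myl3, and within libraries 6 to 15 they were -0.47, -1.12 and -2.13. Between libraries 1 to 5 and 16 to 20 they were 1.29 for Myh7, -0.01 for Myl1, -0.02 for Mylpf and 0.62 for Myl2. With voom they were 0.11 for Myh7, -0.01 for Mylpf and 0.18 for Myl2. With 1 muscle left out, the range was -0.17 to 0.42 for Myh2, -2.98 to 0.61 for Myh7, -0.03 to 0.08 for Mylpf, -1.58 to 0.15 for Myl2 and -0.59 to 0.84 for Myl3. Myh4 kept its direction in 28 of 28 alternatives, of which 20 left out 1 of the same muscles. Its value was 0.04 (SE 0.188) with the library ranges as a term and 0.05 (SE 0.139) within libraries 6 to 15. Within those libraries it was -0.04 without control replicate 10, so its direction was not settled there.

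The ratio differences changed sign with medians in place of means (Myh4 to Myh1 -0.30, Myh1 to Myh2 0.57, Myh4 to Myh2 0.75), within libraries 6 to 15 (Myh1 to Myh2 0.22, Myh4 to Myh2 0.61) and between the other libraries (Myh4 to Myh1 -0.30, Myl3 to Myl1 2.04, Myl2 to Mylpf 0.24). With 1 or 2 counts added, an alternative chosen after seeing the data, Myl3 to Myl1 was 0.03 and 0.04. With 1 muscle left out they ranged from -0.20 to 0.22 for Myh4 to Myh1, -0.35 to 0.07 for Myh1 to Myh2, -0.46 to 0.21 for Myh4 to Myh2, -0.67 to 0.72 for Myl3 to Myl1 and -1.02 to 0.26 for Myl2 to Mylpf. Of 8 correlations, 6 passed, against 4 without the 2 farthest muscles, 6 when centered on treatment only, 7 as shares of the 10 genes and 5 by Spearman rho.

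With the replicate number as a block, 0 myosin genes and 0 ratios passed, and Myl3 had -0.27. Muscles with the same number share only that number: the correlations of their deviations were -0.240 to 0.221, and 2 of 10 were over 0.1. Depth limits the slow genes most, with 3 counts or fewer of Myh7 in 3 muscles.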

Other observations

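Several myosin genes overlap antisense genes, whose counts were compared because strand handling in the counting step is not given. Myhas, antisense to Myh1, held 384 to 858 counts per muscle, at 32.6 ± 7.53 CPM in control and 35.1 ± 8.87 after secretome (log2 fold change 0.11, edgeR adjusted p = 0.739). The gene 9430073C21Rik, antisense to Myh2, held 4 to 33 counts. Mhrt, within Myh7, had 0 counts in every library, and Ccdc63, opposite Myl2, had at most 5. Pth1r, opposite Myl3, held 5 to 28 counts with a log2 fold change of -0.44 (edgeR adjusted p = 0.42).

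Taken per length, the developmental chains Myh3 and Myh8 together made up 0.0591% ± 0.0439 of all 6 heavy chains in control and 0.0213% ± 0.00868 after secretome (mean ± SD, n = 10 each), with ranges of 0.0155% to 0.137% and 0.0115% to 0.0422%. Within libraries 6 to 15 the shares were 0.052% ± 0.0486 and 0.0204% ± 0.00458. The slow light chains Myl2 and Myl3 made up 0.277% ± 0.39 of the 4 light chains in control and 0.267% ± 0.485 after secretome, with the 2 treatments overlapping from 0.00577% to 1.24%. These shares were not tested.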
